A study of Rattus norvegicus with 4 samples.

Results

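Ces1d, carboxylesterase 1D (ENSRNOG00000015519), was 1 of the 25399 genes counted, and it was picked by its symbol because earlier results of these data had shown it to be high in eye-muscle fibroblasts. Its levels are therefore a description, with no test. It was followed in the 2441 of 13557 analysed cells that held at least 5 unique molecular identifiers (UMIs) of Dcn, the gene of decorin, a matrix proteoglycan made by fibroblasts. The data are single-cell RNA libraries of rats aged 12 months, 1 library for each pair of muscle and disease state. The libraries are the extraocular muscles (EOM) labelled DMD, EOM labelled WT, the tibialis anterior (TA), a limb muscle, labelled DMD, and TA labelled WT. The labels name no strain, sex, allele behind DMD or number of animals. The label comes from the disease state field, and in all 4 samples the title states the opposite state. Reading the titles would turn each DMD over WT direction round and leave the direction between muscles as it is.

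Carboxylesterases are serine hydrolases of the endoplasmic reticulum that cleave ester bonds in drugs, other foreign compounds and lipids. In rodents Ces1d is best known in liver and adipose tissue, where it hydrolyses triacylglycerol and takes part in the handling of stored lipid. Muscle fibroblasts include the fibro-adipogenic progenitors (FAPs), interstitial cells that build matrix and can turn into adipocytes.

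Ces1d lies among relatives. In the RefSeq table for GRCr8, a later rat assembly than the rn6 build of the files, Ces1f, Ces1e, Ces1d, Ces1c and Ces1a follow each other on chromosome 19, and a further copy, Ces1dl1, lies elsewhere on the same chromosome. Of these 6 genes, Ces1d and Ces1a stand under those symbols in the feature table used for counting, and the others were not analysed here. Reads of the other copies could have been counted to Ces1d, so its counts are uncertain to that extent. The 250 bases before the start of Ces1d, of the copy most like it by name and of the other counted relative are given from the RefSeq table for GRCr8, all on the + strand, to show how close the copies are where transcription begins. Capitals mark matches to AGATAA, the letters read by GATA factors, and GTAAAC, letters read by forkhead factors, searched on both strands; no match of one overlapped the other.
Ces1d, chr19:30046244-30046493: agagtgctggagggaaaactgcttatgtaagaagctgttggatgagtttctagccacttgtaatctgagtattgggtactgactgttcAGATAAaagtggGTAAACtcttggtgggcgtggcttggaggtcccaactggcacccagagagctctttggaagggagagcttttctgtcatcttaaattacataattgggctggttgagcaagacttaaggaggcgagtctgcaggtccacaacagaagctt
Ces1dl1, chr19:38444174-38444423: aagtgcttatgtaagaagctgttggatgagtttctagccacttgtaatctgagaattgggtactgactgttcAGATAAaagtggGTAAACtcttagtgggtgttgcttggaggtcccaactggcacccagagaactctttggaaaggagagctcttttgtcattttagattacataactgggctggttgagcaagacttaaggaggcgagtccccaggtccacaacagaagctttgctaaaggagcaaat
Ces1a, chr19:30132428-30132677: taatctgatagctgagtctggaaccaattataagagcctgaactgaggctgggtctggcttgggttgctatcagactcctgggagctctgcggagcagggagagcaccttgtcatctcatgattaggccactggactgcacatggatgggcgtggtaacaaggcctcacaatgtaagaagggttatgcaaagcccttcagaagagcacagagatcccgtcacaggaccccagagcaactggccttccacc
In a global alignment, 220 of the 250 bases (88.0%) of Ces1d matched Ces1dl1, and 136 of 250 (54.4%) matched Ces1a. Ces1d and Ces1dl1 each held both motifs in the same order, and Ces1a held neither in this window. AGATAA occurred in 10.3% of 33469 promoter windows of this length, GTAAAC in 7.003%, and both together in 0.926%. TATAAA was in none of the 3 windows and in 12.9% of all windows.

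Ces1d was abundant in EOM Dcn cells and close to 0 in TA Dcn cells. EOM labelled DMD held 7066 Ces1d UMIs in 754 cells, EOM labelled WT held 2521 in 251 cells, TA labelled DMD held 5 in 1421 cells and TA labelled WT held 0 in 15 cells. Per 1000000 UMIs of the same cells (CPM), that was 1302 in EOM labelled DMD (exact Poisson 95% interval 1272 to 1333) and 1452 in EOM labelled WT (1396 to 1510). It was 1.20 CPM in the TA library labelled DMD (0.388 to 2.79). The count of 0 in TA labelled WT has an upper limit of 42.7 CPM. The EOM libraries were the high ones whichever label they carried, and their intervals lay far above those of both TA libraries. With 1 library a group there is no replicate, and these intervals cover counting error only.

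The share of Dcn cells with at least 1 Ces1d UMI followed the same order of muscles. It was 77.3% in EOM labelled DMD (Clopper-Pearson 95% interval 74.2 to 80.3), 73.3% in EOM labelled WT (67.4 to 78.7) and 0.352% in TA labelled DMD (0.114 to 0.819). In TA labelled WT it was 0 of 15 cells, with an upper limit of 21.8%. Median depth was 7030.5 UMIs in EOM labelled DMD, 6893 in EOM labelled WT, 1345 in TA labelled DMD and 6236 in TA labelled WT, so cells of TA labelled DMD were shallower. Thinned to 1000 UMIs each, 54.3% of 731 cells, 49.2% of 242 cells and 0.108% of 925 cells kept a Ces1d UMI in EOM labelled DMD, EOM labelled WT and TA labelled DMD, with 23, 9 and 496 shallower cells left out. At that depth 0 of 14 cells of TA labelled WT held one. At 2000 UMIs the shares were 67.6%, 63.2% and 0.415%.

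Among EOM cells the level varied widely. In EOM labelled DMD 171 cells had 0 Ces1d UMIs, 42 had 1, 143 had 2 to 4, 131 had 5 to 9 and 267 had 10 or more, and the highest cell had 89. In EOM labelled WT the same classes held 67, 25, 36, 49 and 74 cells, with 147 UMIs in the highest. The median cell had 5 and 4 UMIs (quartiles 1 to 13 and 0 to 12), and the highest 10% of cells held 41.1% of the Ces1d UMIs in EOM labelled DMD and 50.02% in EOM labelled WT. Each of the 5 positive cells of TA labelled DMD had 1 UMI. The plot of Ces1d per cell shows this spread.

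**Figure D1:**
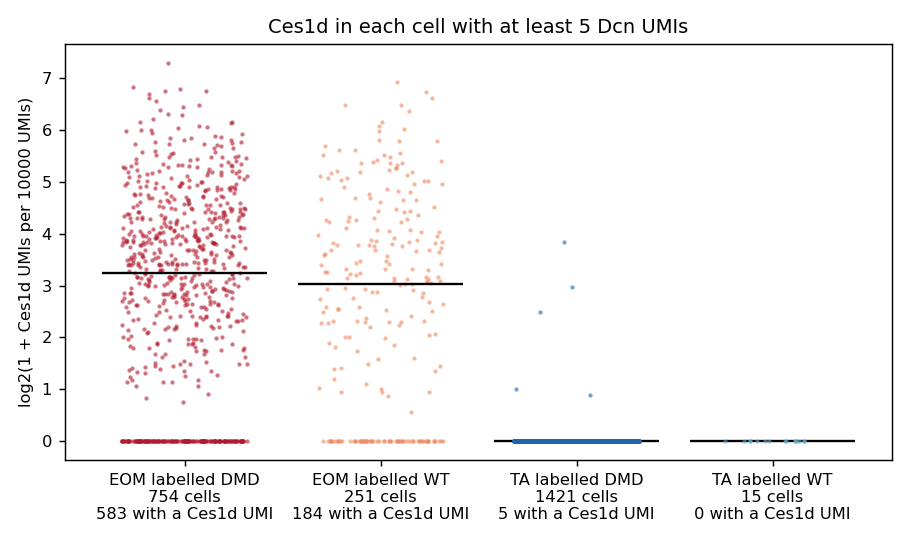
Ces1d in each cell with at least 5 Dcn UMIs, by library; the y axis is log2(1 + Ces1d UMIs per 10000 UMIs), points are cells with random sideways spread and black bars are medians. EOM cells spread from 0 upward with 583 of 754 and 184 of 251 positive, while the TA libraries hold 5 positive cells of 1421 and 0 of 15.

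Nearly all Ces1d UMIs of the EOM libraries lay in the Dcn cells, 99.5% of 7099 in EOM labelled DMD and 99.1% of 2544 in EOM labelled WT. Just outside and just inside the limit, EOM labelled DMD had 1 Ces1d UMI in 16 cells with 4 Dcn UMIs and 2 in 6 cells with 5, and EOM labelled WT had 2 in 3 cells and 1 in 2 cells. TA labelled DMD had 1 in 210 cells and 0 in 167 cells, and TA labelled WT had 0 in 4 cells and 0 in 1 cell. Few EOM cells thus stood near the limit. Of the deposited barcodes 22 occurred in more than 1 library, of the analysed ones 11, and of the Dcn cells 1. None of the 7 barcodes of TA labelled DMD with a Ces1d UMI occurred in an EOM library.

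The Dcn cells were checked against fibroblast markers. Cells with a UMI of Pdgfra, the receptor that defines FAPs, made up 73.7% in EOM labelled DMD, 72.9% in EOM labelled WT, 39.3% in TA labelled DMD and 20% in TA labelled WT. Cells with a UMI of Col1a1, a fibrillar collagen, made up 91.6%, 94.4%, 71.9% and 80.0% in the same order. These shares were not thinned, and cells of TA labelled DMD were shallower. By level Pdgfra had 377, 437, 388 and 162 CPM in the same order. Col1a1 had 1927, 5874, 2428 and 4840 CPM, so neither level was lower in TA labelled DMD than in EOM labelled DMD. Clusters named fibroblast/FAP-like from their markers held 88.2%, 89.6%, 70.2% and 40.0% of the Dcn cells. The EOM cells carried less endothelial RNA: 7 endothelial markers summed to 32.6 CPM in EOM labelled DMD and 55.9 CPM in EOM labelled WT, against 541 CPM in TA labelled DMD, none of the 7 being at 0 in these libraries. In TA labelled WT they summed to 197 CPM, with 5 of 7 at 0. The 10 tenocyte (tendon cell) markers summed to 1379 CPM in EOM labelled DMD and 1506 CPM in EOM labelled WT. They summed to 3956 CPM in TA labelled DMD and 11151 CPM in TA labelled WT. Thbs4 made up most of both TA sums, with 574, 542, 3289 and 8383 CPM in the same order. The rest ran both ways between the DMD libraries. Kera had 455 CPM in EOM labelled DMD and 39.9 CPM in TA labelled DMD, and Comp had 43.5 and 299 CPM. The higher TA sums are therefore mainly those of Thbs4. The part of the tenocyte and endothelial RNA in the Ces1d levels was not tested.

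Between the DMD libraries the difference between muscles was of like size in deeper cells, in cells with a Pdgfra UMI and in fibroblast/FAP-like clusters. Over all Dcn cells Ces1d was 1090-fold higher in EOM labelled DMD than in TA labelled DMD (95% interval of the ratio of counts 467 to 3357). In cells with at least 5000 UMIs it had 6218 UMIs in EOM labelled DMD and 2 in TA labelled DMD, a ratio of 1592 (440.5 to 13148). In fibroblast/FAP-like clusters the ratio was 804 (344.5 to 2478). In cells with a Pdgfra UMI it was 1689 (467 to 13951), on 5857 UMIs against 2. In tenocyte-like cells EOM labelled DMD had 353 UMIs and TA labelled DMD had 0. That is 121.5-fold with TA set to the floor of 3 counts, and the lower 95% limit of the ratio was 98.3. EOM and TA fibroblasts mostly fell in different clusters: cluster 5 held 75.6% of the Dcn cells of EOM labelled DMD and 74.1% of those of EOM labelled WT, whereas cluster 2 held 51.4% of those of TA labelled DMD. The 22 TA labelled DMD cells in cluster 5 had 0 Ces1d UMIs, and the 207 cells of cluster 19, with a median of 7730 UMIs, had 2. Between the WT libraries Ces1d was 41.8-fold higher in EOM labelled WT with TA labelled WT set to the same floor. The lower 95% limit of that ratio was 34.0, and the 15 cells of TA labelled WT set it. In fibroblast/FAP-like clusters, with 6 cells of TA labelled WT, the lower limit was 8.09.

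Set against all genes of these cells, the difference stood at the top. With 10 CPM added to both sides, 114 of 3169 genes with at least 50 CPM in the higher library were past 2-fold higher in EOM labelled DMD than in TA labelled DMD (3.60%) and 159 past 2-fold lower (5.02%). With TMM scaling, which moved the median log2 ratio of all genes to 0.03 from -0.08, 150 were higher and 140 lower, and with a minimum of 100 CPM 86 were higher and 82 lower. Ces1d ranked 1 of the 3169, at 6.87 on this log2 scale; it had been chosen for this difference, so nothing is read from the rank. Ccl11, an eosinophil chemoattractant, stood at 4.26 and Pi16, a marker of adventitial fibroblasts, at 3.88. The plot of both libraries places these genes.

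**Figure D2:**
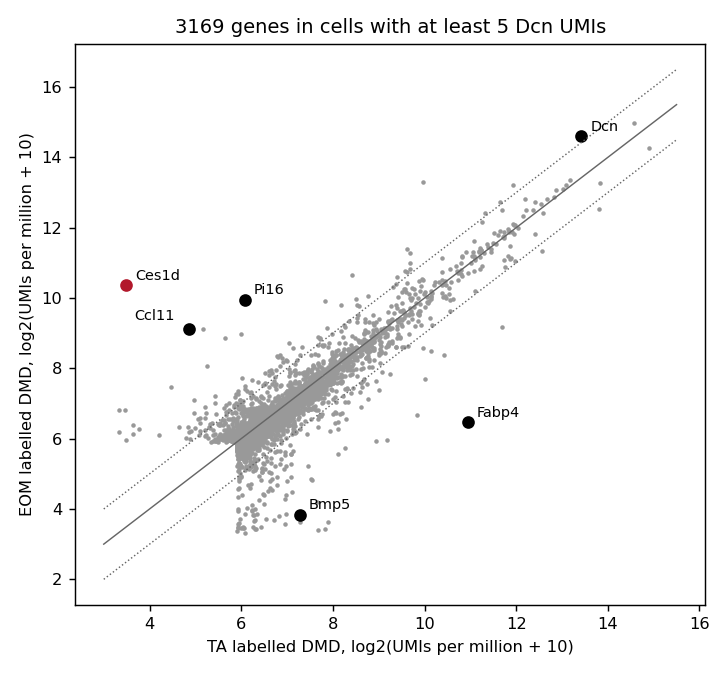
Each point is 1 of 3169 genes in cells with at least 5 Dcn UMIs; the axes are log2(CPM + 10) in EOM labelled DMD (y) and TA labelled DMD (x), the solid line marks equal levels and the dotted lines a 2-fold difference. Ces1d lies farthest above the line at 6.87, with Ccl11 at 4.26, while Fabp4 and Bmp5 lie below it.

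The EOM libraries differed little from each other. Ces1d was 1.12-fold lower in EOM labelled DMD than in EOM labelled WT (1.07 to 1.17; log2 ratio -0.16), and 49 of 3070 genes were past 2-fold higher (1.60%) and 33 past 2-fold lower (1.07%), or 63 and 23 with TMM scaling. Ces1d ranked 1968 from the top. Both comparisons use EOM labelled DMD. The direction depended on how cells were weighed. Averaged over cells, the level was 14.2 per 10000 UMIs in each library. In cells with under 2 UMIs of other classes' markers it was 1342 CPM in EOM labelled DMD and 873 CPM in EOM labelled WT, which turned the log2 ratio to 0.62. Those cells were 37.0% and 33.1% of the Dcn cells. They were shallower, with medians of 5193 and 3527 UMIs against 8002 and 7985 UMIs in the rest. The markers include Tnnt3, of which 38.6% and 43.4% of all EOM Dcn cells held a UMI. The part of depth and of such markers in the turn was not tested. Between the TA libraries, 5 UMIs in TA labelled DMD against 0 in the 15 cells of TA labelled WT gave no fold.

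Within EOM, the Ces1d level differed between some sets of Dcn cells. Cells with a Pi16 UMI had 1420 CPM in EOM labelled DMD and 1712 CPM in EOM labelled WT, and cells without one had 1197 and 1172 CPM. Cells with one were deeper, with medians of 7839 against 6561.5 UMIs and 7669 against 6442 UMIs. Thinned to 1000 UMIs, 54.27% with and 54.34% without one held Ces1d in EOM labelled DMD. In EOM labelled WT it was 53.45% (43.95 to 62.76) and 45.24% (36.36 to 54.35). Pi16 is used as a mark of progenitor-like adventitial fibroblasts, and Ces1d was present on both sides of it. Cells with a UMI of Dpp4, a surface peptidase that marks the same kind of progenitor, were low: 544 CPM (485 to 608) in 55 cells of EOM labelled DMD and 298 CPM (195 to 436) in 14 cells of EOM labelled WT, against 1390 and 1514 CPM in cells without one. Median depth in cells with and without a Dpp4 UMI was 9679 and 6956 UMIs in EOM labelled DMD, and 5312.5 and 6976 UMIs in EOM labelled WT.

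Tenocyte-type cells were lower too. Cells with a UMI of Tnmd, Scx, Mkx or Thbs4 had 1038 CPM in EOM labelled DMD and 714 CPM in EOM labelled WT, and cells without any had 1459 and 1690 CPM. The tenocyte-like cluster had 930 CPM in 58 cells and 563 CPM in 16 cells. Cells without a UMI of Lum, the gene of lumican, another matrix proteoglycan, had 342 and 524 CPM, against 1341 and 1502 CPM with one, and the cells without it were shallower (medians of 1633.5 and 3105.5 UMIs). Dcn cells outside the fibroblast and tenocyte clusters had 48.0 CPM in 31 cells and 208 CPM in 10 cells. The fibroblast/FAP-like cluster 22, whose cells were shallow with medians of 1354 and 1291 UMIs, had the highest levels, 2347 CPM in 79 cells and 2295 CPM in 25 cells. The plot by kind of cell shows the order.

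**Figure D3:**
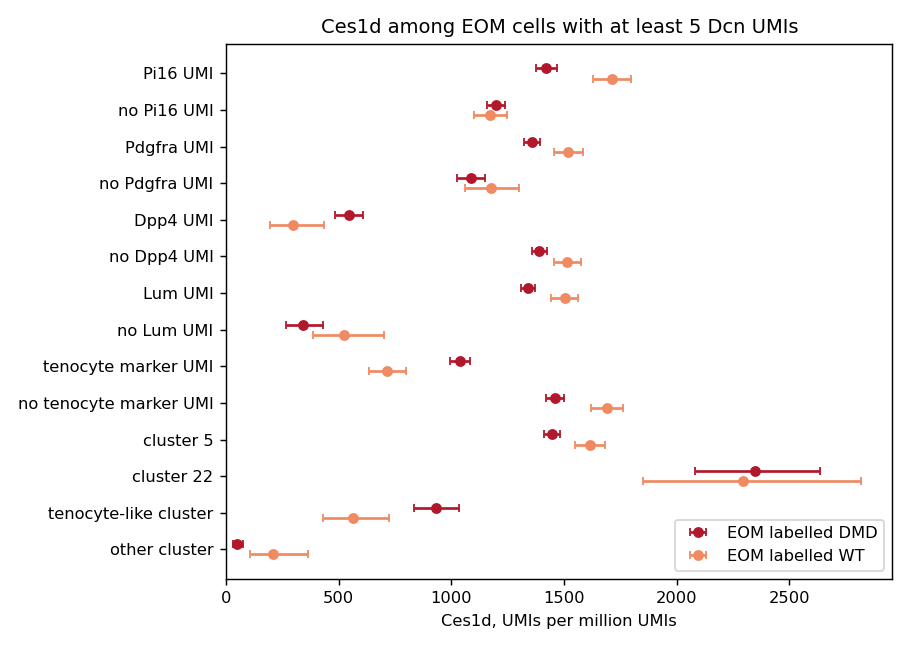
Ces1d in UMIs per 1000000 UMIs (x axis, from 0) for sets of EOM cells with at least 5 Dcn UMIs, EOM labelled DMD above EOM labelled WT in each row; bars are exact Poisson 95% intervals. Cluster 22 is highest at 2347 and 2295, and cells with a Dpp4 UMI (544 and 298), without a Lum UMI (342 and 524) and of other clusters (48.0 and 208) are lowest.

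Outside the Dcn cells Ces1d was at most 10.5 CPM in every class with at least 20 cells other than fibroblast/FAP-like cells, of which 20 cells of EOM labelled DMD with fewer Dcn UMIs held 2 Ces1d UMIs (106 CPM). The clusters were named from marker genes, and Ces1d itself was not used for clustering. Endothelial-like cells were taken as a background on the assumption, not tested, that they lack Ces1d. They had a Ces1d UMI in 2.41% of 582 cells of EOM labelled DMD (14 UMIs, 8.61 CPM). In EOM labelled WT it was 0.183% of 547 cells (1 UMI, 0.703 CPM). Their median depths were 2553.5 and 2211 UMIs. Thinned to 1000 UMIs the shares were 0.783% of 511 cells and 0 of 506 cells, the latter with an upper exact limit of 0.726%. In TA labelled DMD 0 of 2599 endothelial-like cells held one, with an upper exact limit of 0.142%. Satellite-like cells, the muscle stem cells, had 4.82 CPM (6 UMIs) in EOM labelled DMD and 10.5 CPM (8 UMIs) in EOM labelled WT. Macrophage/monocyte-like cells had 6 and 2 UMIs and mural-like cells, the muscle cells and pericytes of vessels, 3 and 2.

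All classes other than fibroblast/FAP-like and tenocyte-like together had 31 Ces1d UMIs (4.62 CPM) in EOM labelled DMD, 17 (3.56 CPM) in EOM labelled WT, 1 (0.0682 CPM) in TA labelled DMD and 0 in TA labelled WT. In these cells there were 4.82 Ces1d UMIs per 100 Dcn UMIs in EOM labelled DMD (95% interval 3.25 to 6.91) and 5.97 in EOM labelled WT (3.43 to 9.72). The Dcn cells of the same libraries had 5.22 (5.10 to 5.35) and 5.06 (4.86 to 5.27), within the intervals of the other classes pooled. Endothelial-like cells alone had 8 in EOM labelled DMD (4.29 to 13.8), on 14 Ces1d UMIs, and 0.848 in EOM labelled WT (0.0213 to 4.81), on 1 UMI, which lay below the interval of the Dcn cells. Of the classes with at least 20 cells, 4 of 11, 1 of 7, 11 of 13 and 6 of 6 had 0 Ces1d UMIs in EOM labelled DMD, EOM labelled WT, TA labelled DMD and TA labelled WT.

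**Figure D4:**
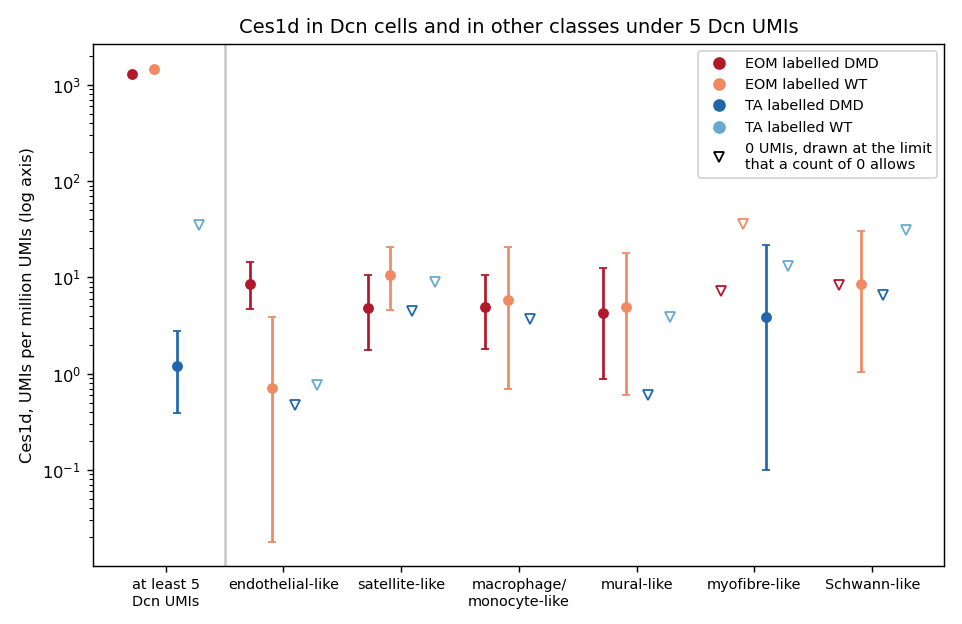
Ces1d in UMIs per 1000000 UMIs (log axis) in cells with at least 5 Dcn UMIs and in 6 classes among cells with fewer, by library; points carry exact Poisson 95% intervals, open triangles mark 0 UMIs at the limit that count allows, and classes under 20 cells in a library are left out. The EOM Dcn cells stand at 1302 and 1452, and the other classes with a UMI reach at most 10.5.

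The other carboxylesterases that could be counted were scarce. Of the 20 genes of the fixed family list 12 were found in the files, and 9 of these had 0 UMIs in the Dcn cells of all 4 libraries. Ces1c, Ces1e, Ces1f and Ces1dl1 do not stand under those symbols in the feature table. Whether they were counted under other names was not checked, so most of the Ces1 relatives are not covered here. The 12 include Aadac and Nceh1, which do not carry the Ces symbol. Ces1a, a close relative of Ces1d, had 157 UMIs (28.9 CPM, 24.6 to 33.8) in EOM labelled DMD and 28 (16.1 CPM, 10.7 to 23.3) in EOM labelled WT. TA labelled DMD had 32 (7.65 CPM, 5.23 to 10.8) and TA labelled WT had 0. EOM was the higher muscle here too, by 3.78-fold for the DMD libraries (2.57 to 5.72). In EOM labelled DMD 18.4% of Ces1d-positive cells and 6.43% of Ces1d-negative cells held a Ces1a UMI, and in EOM labelled WT 13.0% and 1.49%. The 1.49% is 1 cell. Ces1d-positive cells were also deeper, with medians of 7310 against 5958 UMIs in EOM labelled DMD and 7697.5 against 4745 UMIs in EOM labelled WT. These shares were not thinned. Reads shared between the copies could add to the Ces1a shares and were not tested. Ces2c, an intestinal and hepatic carboxylesterase, ran the other way with 3, 0, 18 and 0 UMIs in EOM labelled DMD, EOM labelled WT, TA labelled DMD and TA labelled WT. Nceh1, a hydrolase of neutral cholesterol esters, had 46, 11, 52 and 3 UMIs.

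Genes that went with Ces1d from cell to cell were ranked by Pearson r of log2(1 + UMIs per 10000), averaged over EOM labelled DMD (754 cells), EOM labelled WT (251 cells) and TA labelled DMD (1421 cells), among 3342 genes. The cells of a library share its preparation and differ in depth, and the r in TA labelled DMD rests on 5 UMIs. In the same order 31, 10 and 282 of these Dcn cells lay outside the fibroblast and tenocyte clusters. Of those, 3, 3 and 0 held a Ces1d UMI, so an r can also reflect the kind of cell. Their part was not tested. The median r was 0.006, so most genes did not follow Ces1d. Gsn, the gene of the actin-severing protein gelsolin, came highest, with r of 0.42 in EOM labelled DMD and 0.38 in EOM labelled WT. Fbln1 (fibulin-1, a matrix glycoprotein) had 0.31 and 0.41, and Igf1 (insulin-like growth factor 1) had 0.38 and 0.34. Gstm7, a glutathione transferase, had 0.26 and 0.41, and Ccdc80, a secreted matrix-associated protein, had 0.30 and 0.35.

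The other high genes were Gas6, the ligand of the TAM receptor kinases, Igfbp4, an IGF-binding protein, Htra1, a secreted serine protease, Ntrk2, the receptor of brain-derived neurotrophic factor, and Cpxm1, a secreted relative of carboxypeptidases, with r from 0.14 to 0.28 in EOM labelled DMD and from 0.30 to 0.32 in EOM labelled WT. All 5 had a lower r in EOM labelled DMD than in EOM labelled WT. Of the 10 high genes Igf1 had the largest ratio in EOM labelled DMD, with 3099 CPM in Ces1d-positive and 1191 CPM in Ces1d-negative cells. In EOM labelled WT Igf1 had 2689 and 1532 CPM. Ntrk2 had 145 and 57.8 CPM in EOM labelled DMD, and 226 and 52.9 CPM, the largest ratio, in EOM labelled WT. The smallest ratios were those of Cpxm1 in EOM labelled DMD (125.5 and 81.6 CPM) and of Htra1 in EOM labelled WT (551 and 420.5 CPM). Positive cells were also deeper, with medians of 7310 against 5958 UMIs and 7697.5 against 4745 UMIs. With total UMIs regressed out, the mean r over 3 libraries was 0.28 for Gsn and 0.26 for Fbln1, as without; thinned to 1000 UMIs it was 0.21 and 0.09. Dcn itself had r of 0.23 and 0.11.

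At the low end stood Rem1, a Ras-like GTPase, Emp1, a membrane protein, AABR07021544.1, which the files give no name, Tnfrsf21, a death-domain receptor, and Arhgdib, a gene known from blood cells, with r from -0.24 to -0.12 in EOM labelled DMD and from -0.28 to -0.18 in EOM labelled WT. Arhgdib had 30.1 CPM in Ces1d-positive cells and 200 CPM in Ces1d-negative cells of EOM labelled DMD, and 13.8 and 111 CPM in EOM labelled WT. Rem1 had 18.4 and 121 CPM, and 32.7 and 97.5 CPM. These groups hold the 31 and 10 EOM Dcn cells outside the fibroblast and tenocyte clusters, of which 3 and 3 were Ces1d-positive. The values are therefore not those of fibroblasts alone. Ranked over the EOM libraries alone, among 5875 genes and chosen after the data were seen, 34 genes had a mean r over 0.2 and 6 under -0.2, and Plpp3, Gdf10 and Aox3 entered the 10 highest.

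**Figure D5:**
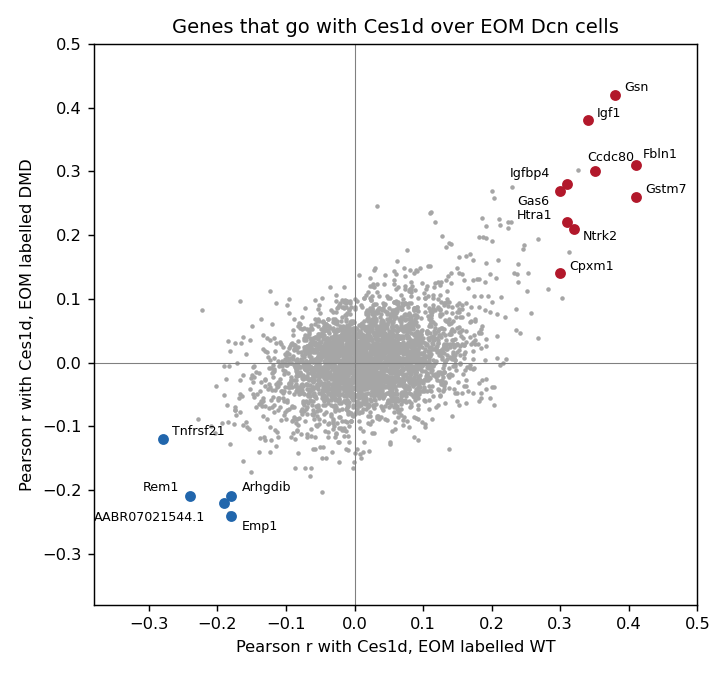
Pearson r with Ces1d over cells with at least 5 Dcn UMIs in EOM labelled DMD (y) and EOM labelled WT (x), 1 point for each of 3342 genes; red points are the 10 genes with the highest mean r over 3 libraries and blue points the 5 lowest. Gsn stands at 0.42 and 0.38, and most genes cluster around 0.

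Across cell classes other genes stood closest. Over 40 profiles of class and library, the genes most like Ces1d among 8381 were Kcnip4, a potassium channel partner (r 0.93), Phex, a membrane endopeptidase of phosphate metabolism (0.92), Igfbp2, an IGF-binding protein (0.90), Dact2, a regulator of WNT and TGF-beta signals (0.89), and Mmp27, a matrix metalloproteinase (0.89). The profiles share libraries and depth. Nearly all Ces1d UMIs lay in EOM fibroblast/FAP-like and tenocyte-like cells, so these r rest mainly on those few profiles. They are not on 1 scale with the r over cells. All were far lower than Ces1d: Kcnip4 had 46.3, 58.2 and 3.35 CPM in Dcn cells of EOM labelled DMD, EOM labelled WT and TA labelled DMD, and Phex had 60.8, 63.4 and 2.39 CPM. Over EOM cells Phex had r with Ces1d of 0.20 and 0.33.

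Of 22 lipid droplet and lipolysis genes, 7 were detected well enough for an r in EOM, with a median of -0.01 and none over 0.2. Only 4 could be compared between EOM labelled DMD and TA labelled DMD, with 0 past 2-fold higher, 1 lower and a median log2 ratio of -0.34, against 3.60% higher, 5.02% lower and a median of -0.08 over all genes. The lower one was Mgll, monoacylglycerol lipase, at 9.03 CPM in EOM labelled DMD and 74.4 CPM in TA labelled DMD. Of the fatty acid uptake and triglyceride synthesis genes 0 were past 2-fold higher and 2 lower of 4 compared, beside the same shares over all genes. Fabp4, a fatty acid carrier of adipocytes and capillaries, had 78.5 CPM in EOM labelled DMD, 30.5 CPM in EOM labelled WT, 1962 CPM in TA labelled DMD and 440 CPM in TA labelled WT. It was 24.98-fold lower in EOM labelled DMD than in TA labelled DMD (22.7 to 27.6), and the endothelial markers given above ran the same way; their part was not tested. Fabp5, a related carrier, had 12.7 CPM in EOM labelled DMD and 86.3 CPM in TA labelled DMD.

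Genes of mature adipocytes were scarce. Adipoq, the gene of adiponectin, had 9, 9, 5 and 2 UMIs in the Dcn cells of EOM labelled DMD, EOM labelled WT, TA labelled DMD and TA labelled WT, and Lep (leptin) and Pck1 had 0 in all 4. Cfd (adipsin) had 59.2, 21.3, 48.5 and 0 CPM. Among adipogenic regulators 1 of 9 was past 2-fold higher in EOM labelled DMD than in TA labelled DMD and 1 lower, against 3.60% higher and 5.02% lower over all genes. Cebpd, an early adipogenic factor, was the higher one, at 1334 CPM in EOM labelled DMD and 657 CPM in TA labelled DMD, and Ccn5, a secreted WNT target, was the lower one, at 66.9 CPM in EOM labelled DMD and 266 CPM in TA labelled DMD. Over EOM cells Klf4 had r of 0.10 in EOM labelled DMD and 0.05 in EOM labelled WT, and Cebpd had -0.08 and -0.09.

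Of 9 Pi16-type genes compared, 5 were past 2-fold higher in EOM labelled DMD than in TA labelled DMD and 1 lower, against 3.60% higher and 5.02% lower over all genes, with a median log2 ratio of 1.12. Pi16 had 980, 891, 57.4 and 139 CPM in EOM labelled DMD, EOM labelled WT, TA labelled DMD and TA labelled WT, and was 17.1-fold higher between the DMD libraries (15 to 19.5), yet its r with Ces1d in EOM cells was -0.03 and 0.09. Ackr3, a scavenging chemokine receptor, had 889 CPM in EOM labelled DMD and 278 CPM in TA labelled DMD. Procr, the protein C receptor, had 257 CPM in EOM labelled DMD and 106 CPM in TA labelled DMD. Of 14 interstitial FAP genes 1 was past 2-fold higher and 3 lower, beside the same shares over all genes. Bmp5, a bone morphogenetic protein, was 34.1-fold lower in EOM labelled DMD, at 4.24 CPM against 145 CPM in TA labelled DMD (22.5 to 54.2). Smoc2, a matricellular protein, had 351 CPM in EOM labelled DMD and 1117 CPM in TA labelled DMD. Apod, a lipocalin, had r with Ces1d of -0.11 in EOM labelled DMD and -0.20 in EOM labelled WT.

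Of 12 xenobiotic and steroid genes 2 were past 2-fold higher in EOM labelled DMD than in TA labelled DMD and 0 lower, against 3.60% higher and 5.02% lower over all genes. Cyp1b1, a cytochrome P450, had 145, 178, 51.2 and 81.1 CPM in EOM labelled DMD, EOM labelled WT, TA labelled DMD and TA labelled WT, with r of 0.20 in EOM labelled DMD and 0.24 in EOM labelled WT, and Gstm1, a glutathione transferase, had 153, 201, 60.0 and 23.2 CPM with r of 0.08 and 0.23. Hsd11b1, which regenerates active glucocorticoid, ran against Ces1d over cells, with r of -0.13 and -0.18.

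Of 16 fibrillar matrix genes 0 were past 2-fold higher in EOM labelled DMD than in TA labelled DMD and 4 lower, against 3.60% higher and 5.02% lower over all genes. Their median r with Ces1d over EOM cells was 0.04. Between the EOM libraries 1 of 16 was past 2-fold higher and 3 lower, against 1.60% and 1.07% over all genes. The higher one was Acta2, which is also a mural marker, at 144 CPM in EOM labelled DMD and 30.5 CPM in EOM labelled WT. Only 3.18% of the Dcn cells of EOM labelled DMD held a UMI of it. Col1a1 was among the lower ones at 1927 CPM in EOM labelled DMD and 5874 CPM in EOM labelled WT. Of 12 cytokine and chemokine genes 3 were past 2-fold higher in EOM labelled DMD than in TA labelled DMD and 1 lower, beside the same 3.60% and 5.02% over all genes. Ccl11 had 542, 509, 18.9 and 11.6 CPM in EOM labelled DMD, EOM labelled WT, TA labelled DMD and TA labelled WT, and its r with Ces1d over EOM cells was -0.07 and -0.02. Cxcl10, an interferon-induced chemokine, had 100, 4.03 and 60.2 CPM in EOM labelled DMD, EOM labelled WT and TA labelled DMD, and 0 UMIs in TA labelled WT.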

How the data were processed

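The authors deposited raw UMI counts, whole numbers for each gene in each barcode. Per the file headers, the software was Cell Ranger 4.0.0, and rn6 is the build per the submitters' processing notes. Per the labels' protocols, muscle was digested and run with 3' version 3.1 chemistry of 10x Genomics. For annotation, strand settings and cell calling nothing is stated by the labels or headers. The libraries held 3093, 1917, 8944 and 3550 barcodes and 14953593, 9468266, 20685086 and 9955900 UMIs (EOM labelled DMD, EOM labelled WT, TA labelled DMD, TA labelled WT).

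Barcodes with at least 500 UMIs, 200 genes and at most 20% mitochondrial UMIs were kept. Scrublet's own threshold marked 19, 5, 0 and 6 cells and did not work, so the highest scores were removed at 0.8% per 1000 cells (42, 13, 585 and 36 cells); in TA labelled DMD the removed cells were shallower than the rest, with a median of 880 UMIs against 1224. Cells were clustered with scanpy 1.11.5 and Leiden 0.10.2 at resolution 1.0. The gene, the lists and the markers were chosen with earlier results of these data known.

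CPM are summed UMIs over summed UMIs of the same cells. CPM carry exact Poisson intervals, shares Clopper-Pearson intervals and ratios conditional binomial intervals, all at 95%. They treat UMIs as independent and cover counting error only. A count of 0 is given the floor of 3 counts. No test was made, as each group is 1 library. Comparisons across genes added 10 CPM to both sides and called a gene past 2-fold with at least 50 CPM in the higher library. An r needed a UMI in 10% of Dcn cells of each library. Named genes are Ces1d, the 10 highest and 5 lowest by mean r with 1 sign in each library, up to 4 of each fixed list (highest and lowest mean r, then past 2-fold), class markers, and the 5 most alike across profiles; Adipoq, Lep, Pck1, the carboxylesterases, Plpp3, Gdf10 and Aox3 fall outside this rule and were named after their values were seen. The list of other classes' markers left out Des, Acta2, Pmp22, Ncam1, Pdgfrb and Il7r and was also set with the data in hand. TMM factors came from edgeR 4.0.16. The computations were checked on simulated counts. The list of retinoid genes is not reported here.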

Additional observations from a re-analysis of the deposited data

Results flagged for a closer look

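Barcodes left out by the filters held Ces1d as well. In EOM labelled DMD, 59 left-out barcodes with at least 5 Dcn UMIs held 172 Ces1d UMIs (1136 CPM, 972 to 1319), and in EOM labelled WT 48 such barcodes held 84 (797 CPM, 636 to 987). These values come from barcodes outside the comparisons. In TA, 24 such barcodes of TA labelled DMD and 4 of TA labelled WT held 0. Those counts have upper exact Poisson limits of 97.6 CPM in TA labelled DMD and 757 CPM in TA labelled WT. Both EOM intervals lay above the limit of TA labelled DMD. The limit of TA labelled WT fell inside the interval of EOM labelled WT, so its 4 barcodes are too few to separate the WT libraries. Left-out barcodes under 5 Dcn UMIs had 7.56 CPM in EOM labelled DMD and 4.75 CPM in EOM labelled WT.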

How the results depend on the processing

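The Ces1d level and share in EOM stayed far above TA labelled DMD under every alternative run, while the ratio between the EOM libraries did not keep its direction. On the log2 scale the EOM labelled DMD over EOM labelled WT ratio of -0.16 became 0.62 in cells with few UMIs of other classes' markers and 0.00 as a mean over cells, and it was -0.06 with TMM scaling, -0.04 thinned to 1000 UMIs and -0.27 in Pi16 cells; the cause was not tested. Below, without other classes' markers means under 2 UMIs of them, which kept the shallower EOM cells. In EOM labelled DMD the level was 1218 CPM with 3 Dcn UMIs as the limit and 1342 without other classes' markers. It was 1459 without tenocyte markers and 1423 as a mean over cells. In EOM labelled WT it was 1396, 873 and 1690 CPM under the same 3 changes of cells. The share in EOM labelled DMD was 73.0% with 3 Dcn UMIs, 80.6% with Pdgfra or Lum required, 80.8% with stricter filters (1000 UMIs, 10% mitochondrial), 72.8% without other classes' markers, and 54.3% and 67.6% thinned to 1000 and 2000 UMIs. In EOM labelled WT it was 67.3% over all deposited barcodes, 61.45% without other classes' markers, and 49.2% and 63.2% thinned. In TA labelled DMD thinning gave 0.108%. The log2 ratio of EOM labelled WT over TA labelled WT, with TA set to the floor of 3 counts, was 5.39. It was 2.01 without other classes' markers, 3.31 in fibroblast/FAP-like clusters, 1.37 in Pi16 cells, 3.22 in Pdgfra cells and 2.78 thinned. Each of these had fewer TA UMIs behind it. The Pi16, Pdgfra and cluster settings were chosen after seeing the data. Of the 10 genes most like Ces1d, 6 stayed among the 10 highest after thinning. Counts past 2-fold for EOM labelled DMD over EOM labelled WT were 89 higher with no minimum beyond 10 UMIs, and 28 higher and 21 lower at 100 CPM, against 49 and 33. For EOM labelled DMD over TA labelled DMD they were 179 higher and 309 lower with no minimum, 86 higher and 82 lower at 100 CPM, and 150 higher and 140 lower with TMM scaling, against 114 and 159, so the excess of lower genes was lost at 100 CPM and with TMM scaling. Over all alternatives for levels, shares, ratios and counts, 33 values moved and 2 reversed, and 112 stayed within the interval of the value (1.5 times for a count). That tolerance is wide where UMIs are few: the TA labelled DMD level of 1.20 CPM reached 2.42 without tenocyte markers. The r of named genes kept their sign in 105 of 105, but thinned to 1000 UMIs Fbln1 had 0.09 in place of 0.26 and Ntrk2 0.05 in place of 0.18. No paired analysis was possible because each group is 1 library and all carry the same number. The limits are 1 library a group, conflicting labels of disease state, 15 Dcn cells in TA labelled WT and shallow cells in TA labelled DMD.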
